A study of Zea mays with 12 samples.

Results

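Carotenoid synthesis and cleavage genes of maize were examined in seedlings of the inbred line B73, as 7 features of the 45577 in the B73 expression tables. They were chosen by gene identifier, from a list that names y1 (psy1), psy2, vp5, lcyE, crtRB1, zep1 and ccd1, and all 7 were found. The seedlings were 14 days old and kept at 28 °C for the 16 h light period and at 25 °C for the 8 h night, with no treatment or mutation stated in the labels. Polysome-bound RNA (B73 polysome profiling) was sequenced in 2 libraries and total RNA (B73 RNA-seq) in 2 libraries, with polyA RNA given as the molecule of both. N6-methyladenosine (m6A), a methyl mark on adenosines of RNA, was mapped by m6A-seq, which sequences fragments pulled down for the mark, in 2 samples with 1 peak list each. The 6 samples of the inbred line Mo17 were not used here, since their gene identifiers are not paired with those of B73 in the files. Whether the replicates were separate plants is not said in the labels. The p-values therefore cover the spread between libraries, which may be technical.

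Carotenoids are made in plastids from isoprenoid precursors. Phytoene synthase joins precursors into colourless phytoene, desaturases and isomerases turn this into red lycopene, and cyclases close the rings at its ends. Hydroxylation of the ring-closed carotenes gives lutein and zeaxanthin, and epoxidation of zeaxanthin leads to the precursors of abscisic acid. In leaves these pigments harvest light and protect the photosystems, and in maize endosperm they give the kernel its yellow colour. Cleavage dioxygenases cut carotenoids and their breakdown products into small volatile or signalling compounds.

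The gene names were checked against the RefSeq gene table of B73 (assembly NAM-5.0), which holds symbols but not the identifiers of these files. The entries for y1 (PSY1), psy2, pds1 (phytoene desaturase, for vp5), lcyE and CCD1 lie on the same chromosomes as the features of that name here, so 5 of 7 names passed this check. The entry for crtRB1 lies on another chromosome than Zm00001d048469. The data therefore go against that name, and the feature is called by its identifier below. No entry of the table carries the symbol zep1, so that name rests on the list alone. The markers of leaf and endosperm and 18 further pathway symbols fixed for the comparison could not be tied to identifiers, with 0 of them paired, so the tissue was not checked by markers and the rest of the pathway was not counted.

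The FPKM (fragments per kilobase of gene and per size of the library) summed to 916684 and 934246 in the polysome libraries and to 1147935 and 1157673 in the total RNA libraries. ENSRNA features, which are predicted non-coding RNA genes, held 26.5% and 25.8% of these sums in polysome RNA and 60.5% and 62.1% in total RNA. An FPKM is scaled by the size of its library and by the length of the feature, so these percentages are not shares of reads. The difference in make-up may bear on every ratio below, and its part in them was not tested. The files hold no counts, so how many reads lie behind an FPKM is unknown. Whether fewer cells of a type or less RNA per cell lie behind a level cannot be told apart in whole seedlings.

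The carotenoid genes spanned a wide range of levels, with the cleavage gene and the first synthase on top. By mean FPKM the order in polysome RNA was ccd1, y1, psy2, vp5, lcyE, Zm00001d048469 and zep1. In total RNA it was the same down to lcyE, followed by zep1 and Zm00001d048469. Among 17218 gene models with an FPKM of at least 1 in both total RNA libraries, ccd1 stood at percentiles 91.9 and 92.5 in polysome RNA and at percentiles 96.5 and 96.4 in total RNA. Neighbours in the order were apart in every library of their group for ccd1 and y1, y1 and psy2, psy2 and vp5, vp5 and lcyE, and lcyE and the gene after it. The lowest pair, Zm00001d048469 and zep1, overlapped in polysome RNA.

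**Figure D1:**
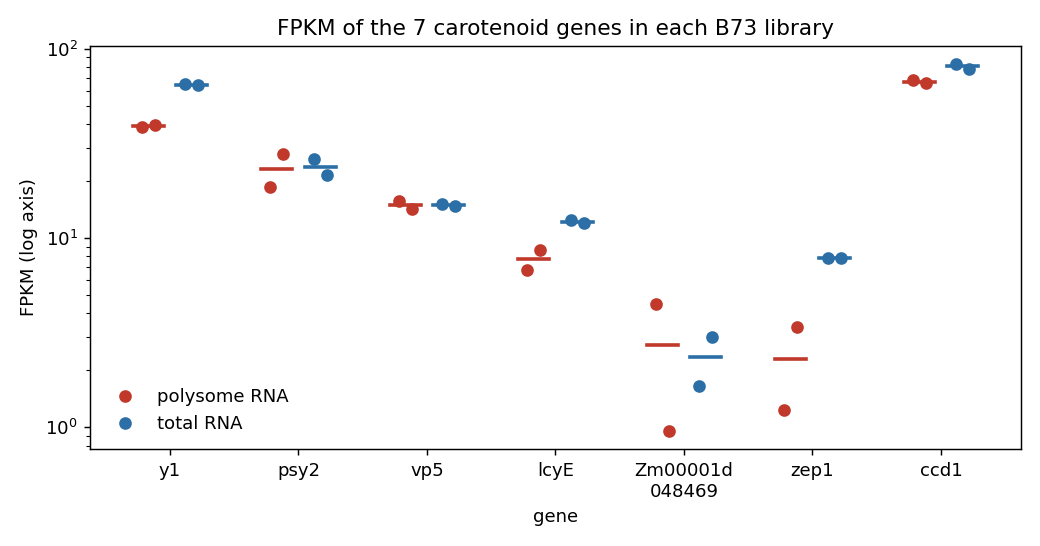
FPKM on a log axis of each carotenoid gene in the 2 polysome libraries (left of each gene) and the 2 total RNA libraries (right). Points are libraries and bars are means. The points of y1, lcyE, zep1 and ccd1 in polysome RNA all lie under those in total RNA, and the points of psy2, vp5 and Zm00001d048469 overlap.

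y1 (Zm00001d036345, chromosome 6, 85061295 to 85065182, plus strand, B73 RefGen_v4) is phytoene synthase 1, which catalyses the entry step of the pathway and underlies the classical yellow endosperm locus. It had FPKM of 38.5 and 39.8 in polysome RNA, against 65.1 and 64.3 in total RNA. The groups did not overlap, and their replicates lay close together, at means of 39.2 ± 0.903 in polysome RNA and 64.7 ± 0.610 in total RNA (SD, n = 2 each). The log2 ratio of polysome to total RNA, on the log2(FPKM + 1) scale, was −0.71 ± 0.15 (SE, limma adjusted p = 0.0106). A call was set at an adjusted p under 0.05 and a log2 ratio of at least 1 in size, so y1 passed the p threshold and not the size. Without total RNA replicate 1 or replicate 2 the log2 ratio was −0.70 or −0.72. Such a fit has 1 total RNA library, so no p is given for it. After scaling each library to the same summed FPKM of gene models with Zm identifiers (Zm sum scaling below), the log2 ratio was −1.31 (limma adjusted p = 0.00184), which is a call.

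psy2 (Zm00001d012394, chromosome 8, 173522111 to 173525090, minus strand) is the second phytoene synthase and carries out the same reaction. It had FPKM of 18.7 and 27.8 in polysome RNA, against 26.1 and 21.6 in total RNA. The groups overlapped: polysome replicate 1 was the lowest of the 4 libraries and polysome replicate 2 the highest. The log2 ratio was −0.06 with a 95% interval from −0.61 to 0.50 (limma adjusted p = 0.864), so neither a lower nor a higher level by that much is excluded by the interval. Without polysome replicate 1 or total RNA replicate 1 the sign turned, to 0.22 or 0.08, and with Zm sum scaling the log2 ratio was −0.65 (limma adjusted p = 0.0642). Within a library, where scaling cancels, the ratio of y1 to psy2 FPKM was 2.06 and 1.43 in polysome RNA, against 2.49 and 2.98 in total RNA. The y1 excess over psy2 was thus smaller in both polysome libraries. An exact permutation test of 2 libraries against 2 cannot give a two-sided p under 0.333, and no other test of this ratio was run.

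vp5 (Zm00001d027936, chromosome 1, 17962828 to 17975699, plus strand) encodes phytoene desaturase, which adds the first double bonds to phytoene. Mutants of vp5 are short of abscisic acid and germinate on the ear. It had FPKM of 15.8 and 14.2 in polysome RNA, against 15.1 and 14.7 in total RNA. The total RNA values lay between the polysome values, and the log2 ratio was 0.003 with a 95% interval from −0.41 to 0.41 (limma adjusted p = 0.990). Without polysome replicate 1 or total RNA replicate 2 it was −0.068 or −0.016. Its sign also turned with scaling. It was −0.26 with median of log ratios scaling and −0.58 with Zm sum scaling (limma adjusted p = 0.195 and 0.0486). The ratio of y1 to vp5 within a library was 2.44 and 2.80 in polysome RNA, against 4.30 and 4.36 in total RNA, groups that do not overlap. This pair was chosen after the values were seen. No ratio within a library was planned, including those of y1 to psy2 and y1 to ccd1. The ratio of lcyE to vp5 was also taken, at 0.427 and 0.610 in polysome RNA, against 0.817 and 0.818 in total RNA.

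lcyE (Zm00001d011210, chromosome 8, 143020695 to 143027838, plus strand) is lycopene epsilon-cyclase, which directs lycopene into the branch that ends in lutein. It had FPKM of 6.74 and 8.67 in polysome RNA, against 12.4 and 12.05 in total RNA. Both polysome values lay under both total RNA values, and the polysome replicates were the further apart. The log2 ratio was −0.61 ± 0.20 (SE, limma adjusted p = 0.0482), past the p threshold by a narrow margin and not past the size. Leaving out polysome replicate 1, total RNA replicate 1 or total RNA replicate 2 gave log2 ratios of −0.45, −0.59 and −0.63. With no filter on FPKM the limma adjusted p was 0.0801 and without the trend 0.0504. With a pseudocount of 0.1 the limma adjusted p was 0.0518 and with the replicate block 0.0672. With Zm sum scaling the log2 ratio was −1.17 (limma adjusted p = 0.00768), a call.

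Zm00001d048469 (chromosome 9, 156850438 to 156852802, plus strand) was the feature listed as crtRB1, a name not used here for the reason above. It had FPKM of 4.46 and 0.956 in polysome RNA, against 1.66 and 3.01 in total RNA. The polysome replicates differed more from each other than the group means did, at 2.71 ± 2.48 in polysome RNA and 2.34 ± 0.961 in total RNA (SD, n = 2 each). Its log2 ratio was 0.00086 with a 95% interval from −1.15 to 1.15 (limma adjusted p = 0.999), the widest of the 7 in these libraries. Leaving out polysome replicate 1 or replicate 2 gave log2 ratios of −0.74 or 0.74, and without total RNA replicate 1 it was −0.30, so either direction rests on 1 library.

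The feature listed as zep1 (Zm00001d003513, chromosome 2, 46304266 to 46305156, minus strand) carries the name of zeaxanthin epoxidase, an enzyme that turns zeaxanthin into violaxanthin. It fell, with FPKM of 1.23 and 3.37 in polysome RNA, against 7.84 and 7.83 in total RNA. Both total RNA values were more than 2 times either polysome value, and the polysome replicates were far apart. The log2 ratio was −1.50 ± 0.33 (SE, limma adjusted p = 0.0134), and without polysome replicate 1 or replicate 2 it was −1.02 or −1.99. With no filter on FPKM the call was lost (limma adjusted p = 0.0505). The span of the feature is 891 bp, the shortest of the 7. The next feature downstream on the same strand, Zm00001d003512, begins 3254 bp further on, and it had FPKM of 11.5 and 11.5 in polysome RNA, against 10.1 and 10.6 in total RNA (log2 ratio 0.14, limma adjusted p = 0.554). That neighbour was singled out after its values were seen, and the files do not say whether the 2 features belong to 1 transcript.

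ccd1 (Zm00001d048373, chromosome 9, 155236300 to 155242285, minus strand) is carotenoid cleavage dioxygenase 1, which cuts carotenoids and apocarotenoids outside the plastid into volatile products, and RefSeq gives the endosperm colour locus wc1 as its synonym. It had FPKM of 68.4 and 65.6 in polysome RNA, against 82.9 and 78.6 in total RNA. The groups did not overlap, but the log2 ratio was small, at −0.27 with a 95% interval from −0.61 to 0.08 (limma adjusted p = 0.183). With median of log ratios scaling and with Zm sum scaling it was −0.55 and −0.87 (limma adjusted p = 0.0351 and 0.00754), still under the size of a call. ccd1 exceeded y1 in every library, with a ratio of y1 to ccd1 of 0.563 and 0.607 in polysome RNA, against 0.786 and 0.818 in total RNA.

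As a list, the carotenoid genes had 1 member lower and 0 higher in polysome RNA by the call rule, against 5.36% lower and 16.6% higher of the 19342 features tested with limma. The count lower was 3 with Zm sum scaling and 0 with no filter on FPKM, where 984 of 29467 features were lower. Over all features, 3220 were higher and 1036 lower, against 1751 and 1464 with median of log ratios scaling and 683 and 2511 with Zm sum scaling. By adjusted p alone, 3 were lower and 0 higher, against 9.95% and 29.3% of all tested. An unadjusted p under 0.05 gave the same 3 and 0, and no share over all features was taken for it. With Zm sum scaling 5 were lower and 0 higher by adjusted p (y1, vp5, lcyE, zep1 and ccd1), against 23.2% and 9.69% of all tested. With median of log ratios scaling 4 were lower and 0 higher, against 16.1% and 20.4%. In 4 of the 7 both polysome values lay below both total RNA values, and in 0 both lay above, against 23.1% and 50.1% of all tested. The median log2 ratio of the 7 was −0.27, and all 7 lay under the median of 0.29 over all tested features, as they did under both other scalings. A fit that leaves out a library has its own median over the features it tests. Without polysome replicate 1 that median was 0.19, and psy2 lay 0.03 above it. Without polysome replicate 2 it was 0.36, and Zm00001d048469 lay 0.38 above it. Relative to the median of 0.29 with all 4 libraries, y1 stood at −1.001, lcyE at −0.90 and zep1 at −1.79. This placed them at percentiles 9.16, 11.3 and 2.96 of the tested features. vp5 and psy2 stood at −0.29 and −0.35 relative to it. Median of log ratios scaling moved the median over all features to 0.07, and Zm sum scaling moved it to −0.19. With 7 genes chosen with earlier results of these data known, the counts are a description and carry no test.

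**Figure D2:**
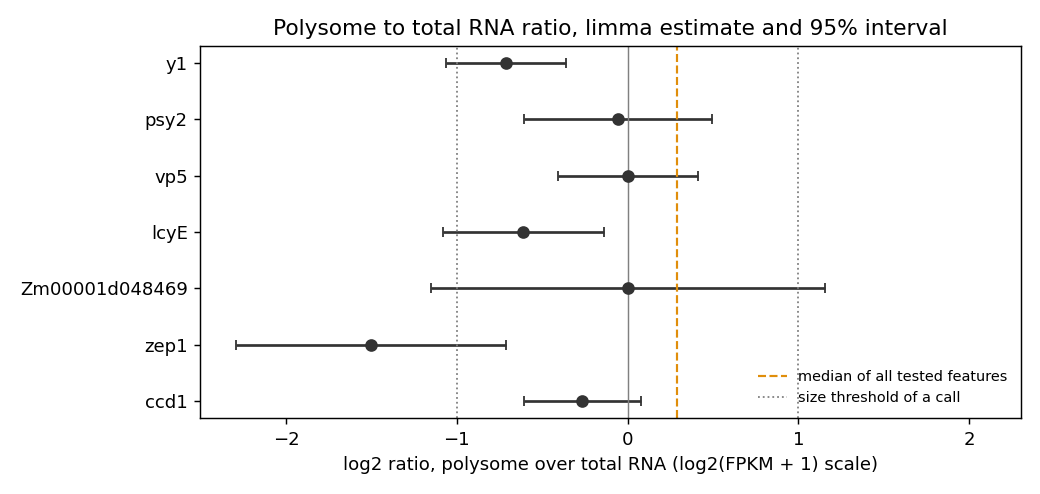
Log2 ratio of polysome over total RNA for each carotenoid gene (points, limma) with its 95% interval (bars). The dashed line is the median of all tested features at 0.29, and the dotted lines mark the size of 1 that a call needs. All 7 points lie left of the dashed line, and the intervals of y1, lcyE and zep1 lie wholly below 0.

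Shares of the summed FPKM of the 7 genes do not depend on library scaling. Each share depends on the levels of the other genes, so it can rise without a rise in FPKM. The sum was 153.8 and 160.4 in polysome RNA and 211.2 and 202.0 in total RNA. y1 held 25.1% and 24.8% of it in polysome RNA, against 30.8% and 31.8% in total RNA. vp5 held 10.3% and 8.86% in polysome RNA, against 7.17% and 7.29% in total RNA. ccd1 held 44.5% and 40.9% in polysome RNA, against 39.3% and 38.9% in total RNA. lcyE held 4.38% and 5.41% in polysome RNA, against 5.86% and 5.96% in total RNA. zep1 held 0.798% and 2.10% in polysome RNA, against 3.71% and 3.88% in total RNA. The shares of y1, lcyE and zep1 were thus lower, and those of vp5 and ccd1 higher, in both polysome libraries. The FPKM of ccd1 itself was lower in both, at 68.4 and 65.6 in polysome RNA, against 82.9 and 78.6 in total RNA. The shares of psy2 at 12.1% and 17.3% in polysome RNA and 12.4% and 10.7% in total RNA overlapped. So did those of Zm00001d048469, at 2.90% and 0.596% in polysome RNA and 0.784% and 1.49% in total RNA.

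**Figure D3:**
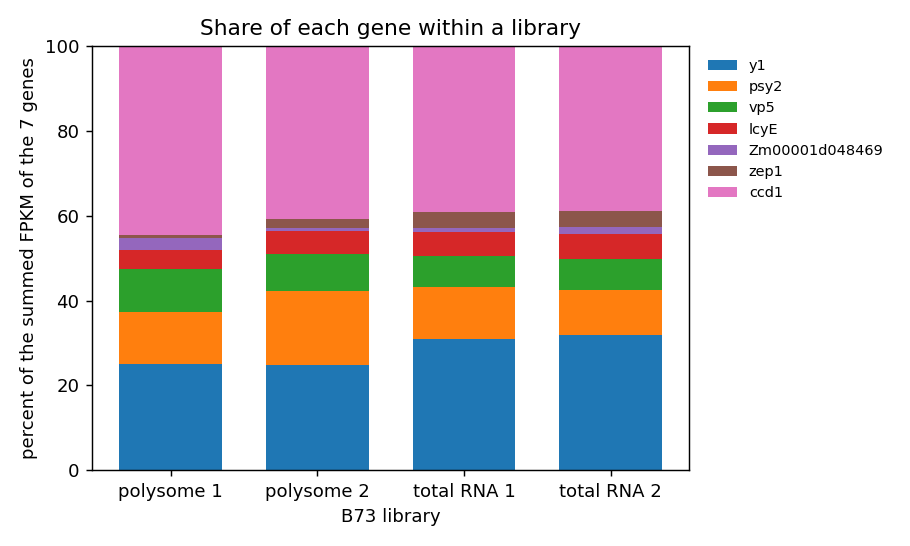
Percent of the summed FPKM of the 7 carotenoid genes held by each gene in the 2 polysome libraries (left) and the 2 total RNA libraries (right). y1 holds 25.1% and 24.8% in polysome RNA, against 30.8% and 31.8% in total RNA, and ccd1 holds the largest share in all 4 libraries.

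m6A peaks stood in the spans of y1, vp5, lcyE and ccd1 in both B73 replicates. A peak was given to a gene when its summit lay within the gene span, and 4 of the 7 had one in both samples, against 52.2% of the 17218 expressed gene models. psy2 had a peak in replicate 1 alone, and 5.86% of expressed gene models had one in a single replicate. For Zm00001d048469 and zep1 no summit lay in the span in either list. The folds and q-values below are the authors' own, per peak, and which control they are relative to is not stated in the labels or files. With peaks of at least 5-fold, 0 of the 7 had one in both replicates, against 38.1% of expressed gene models. At a −log10 q of 10 or more vp5 and lcyE did, against 36.1%. The lists held 17399 and 16161 peaks with median folds of 6.83 and 7.29.

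At y1 a peak of 70 and 66 bp (chr6:85064491-85064560 and chr6:85064487-85064552) had its summit 665 and 663 bp from the 3′ end, 82.9% of the way along the span. Its folds were 2.28 and 3.15, and its −log10 q were 5.42 and 10.9. Of the peaks in each list, 0.862% and 3.86% had a fold this low or lower, so the mark was called here at a fold near the bottom of both lists. At ccd1 the summit lay 139 and 147 bp from the 3′ end, 97.7% and 97.5% of the way along, with folds of 3.15 and 2.48. Those folds are at percentiles 4.48 and 1.19 of their lists. The −log10 q of the ccd1 peak were 11.3 and 7, at percentiles 51.1 and 25.7 of q. The summits of either gene differed by at most 8 bp between replicates.

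lcyE carried the peak of highest fold among the 7. Its folds were 4.52 and 7.68, with −log10 q of 16.1 and 30.7, at percentiles 16.2 and 53.6 of fold. The summits lay at 143024544 and 143024543 on chromosome 8, 3849 and 3848 bp from the 5′ end and 53.9% of the way along a span of 7144 bp. RefSeq gives lcyE a gene length of 3631 bp in its own assembly, shorter than the distance from the 5′ end of the span to the summit. The builds were not aligned, and the files do not say where the transcript ends. At vp5 the peak covered the same 162 bp in both replicates (chr1:17972077-17972238), with folds of 4.40 and 4.37, and summits 9318 and 9277 bp from the 5′ end of a span of 12872 bp. RefSeq gives pds1 a length of 6088 bp, again shorter than that distance.

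psy2 had a weak peak in replicate 1 alone, 92 bp from the 5′ end of its span, with a fold of 2.58 and a −log10 q of 2.76, at percentile 1.90 of fold. It was not overlapped by a peak of replicate 2. A pair of overlapping peaks in both replicates lay 1626 and 1631 bp upstream of psy2, with folds of 4.58 and 4.72, and another pair lay 1544 and 1538 bp upstream of vp5, with folds of 4.01 and 4.78. Their summits fell in the spans of the neighbouring gene models Zm00001d012395 and Zm00001d027934 and were not counted for psy2 or vp5.

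**Figure D4:**
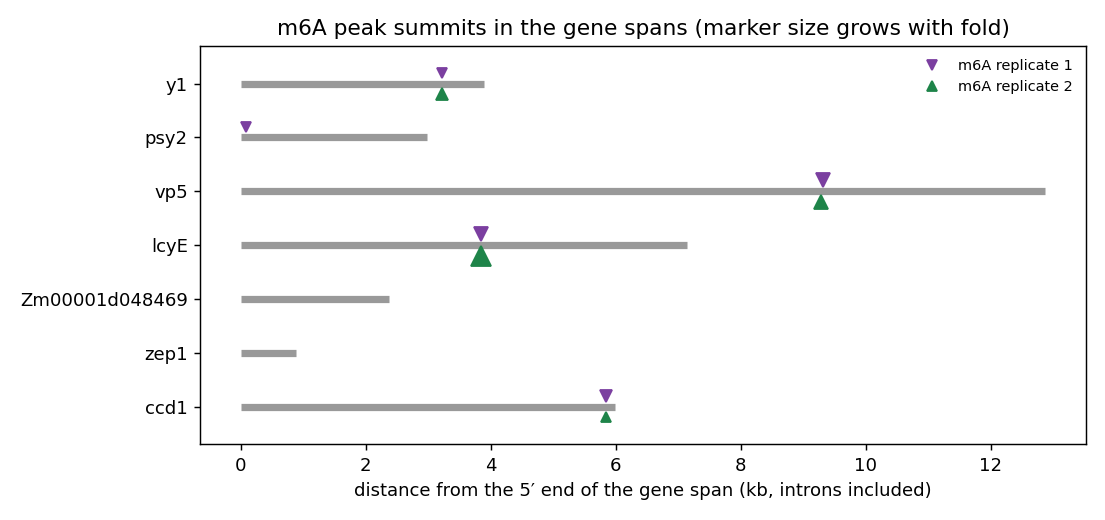
Spans of the carotenoid genes drawn to scale from the 5′ end (kb, introns included) with the summits of the m6A peaks of replicate 1 (above the line) and replicate 2 (below). Marker size grows with the authors' fold. Summits of the replicates coincide at y1, vp5, lcyE and ccd1, the summit of ccd1 lies next to the 3′ end, and psy2 has a summit at the 5′ end in replicate 1.

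The genes with a peak in both replicates also had the longer spans, from 3888 bp at y1 to 12872 bp at vp5, against 2980 bp at psy2, 2365 bp at Zm00001d048469 and 891 bp at zep1. The shares of expressed gene models with a peak in both replicates were 66.1%, 76.8%, 84.4% and 90.8% in the deciles of span that hold y1, ccd1, lcyE and vp5. They were 59.5%, 42.2% and 7.50% in those of psy2, Zm00001d048469 and zep1. Span moved with the presence of a peak among the 7, and its part was not tested. Zm00001d048469 and zep1, with no summit in either list, were also the lowest in total RNA, at mean FPKM of 2.34 and 7.83. psy2, with a peak in a single replicate, had a mean of 23.85, above vp5 at 14.9 and lcyE at 12.2. The part of level was not tested either. Of the genes with a peak in both replicates, y1 and lcyE had log2 ratios of −0.71 and −0.61, and vp5 and ccd1 had 0.003 and −0.27. The ratios of psy2, Zm00001d048469 and zep1 were −0.06, 0.00086 and −1.50. With Zm sum scaling, y1, lcyE, vp5 and ccd1 stood at −1.31, −1.17, −0.58 and −0.87. psy2, Zm00001d048469 and zep1 then stood at −0.65, −0.41 and −1.99. Whether a peak goes with the polysome ratio was not tested.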

How the data were processed

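The 7 genes, and the lists and alternatives, were chosen with earlier results of these data known. The submitters' processing notes name Trimmomatic 0.35, HISAT2, MACS2 and the build B73 RefGen_v4. The program that computed the FPKM, the annotation, the strand setting and the peak control are not stated in these sources. The authors deposited FPKM per gene with its span, 1 table per sample. They deposited 1 peak list per m6A sample, giving for each peak its summit offset, its enrichment as a ratio (fold), a score, and p and q on the −log10 scale. The p-values behind the −log10 values were not recomputed, and the deposited score was not used. Of the 45578 rows, 1 whose span differed between tables was left out. The B73 polysome and RNA-seq tables went into limma 3.58.1 with a trend (in R 4.3.3), as log2(FPKM + 1). Features that reached an FPKM of 1 in 2 or more of the 4 tables were kept. P-values were adjusted by Benjamini-Hochberg over all 19342. The fit has 2 residual degrees of freedom. The log2(FPKM + 1) scale understates changes of low genes. The code was tested on simulated data. The changes put in were larger than any log2 ratio of the 7 and only in features of high FPKM. That test therefore does not cover low genes such as zep1. Named genes are the 7, the features overlapping them or their peaks, and the nearest gene model of each over the 4 libraries. Outside that rule are Zm00001d012395 and Zm00001d027934, which hold a peak near a member, and Zm00001d003512, singled out after its values were seen. Tables were handled with Python 3.11.15 and pandas 2.3.3. Alternatives changed the pseudocount, filter, scaling, block, trend, left-out library, peak threshold and assignment. No sequence file was given, so no sequence is printed.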

Additional observations from a re-analysis of the deposited data

How the results depend on the processing

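The call of zep1 held in 12 of 13 settings. These include the fits with a library left out, where 1 group holds 1 library and its spread is not measured. Without a filter on FPKM, 0 of the 7 were called lower by limma, against 984 of 29467 features tested. There 3 of the 7 had an unadjusted p under 0.05 and were lower, a count for which no share over all features was taken. With Zm sum scaling 3 were called lower, against 2511 of 19342. No setting called a member higher, and 0 had an unadjusted p under 0.05 in that direction. Over all features, median of log ratios scaling gave 1751 higher in place of 3220, and Zm sum scaling gave 683 higher and 2511 lower, in place of 1036 lower. With peaks of at least 5-fold, 0 of the 7 had one in both replicates, against 38.1% of expressed gene models, and at a −log10 q of 10 or more 2 did, against 36.1%. A single m6A replicate gave 4 to 5. Of expressed gene models, 52.2% had a peak in both replicates and a further 5.86% in a single replicate. Leaving out a polysome library moved 0 to 2 genes in the polysome order. The ratio of psy2 ran from −0.33 to 0.22 without 1 library, and that of vp5 from −0.068 to 0.075. That of Zm00001d048469 ran from −0.74 to 0.74, and it was −0.092 and −0.035 with pseudocounts of 0.1 and 0.5. It was −0.21 and −0.41 under the scalings, where vp5 was −0.26 and −0.58. The difference between replicates 1 and 2 in polysome RNA was only weakly, and negatively, correlated with that in total RNA (−0.13 over 19342 genes). This correlation cannot show whether libraries of the same number come from the same plants. The numbers were not taken as pairs in the main fit. With a replicate block 3349 features were higher and 1057 lower, and with the crossed block, added after the data were seen, 3333 and 1056, each with 1 of the 7 called lower. Signs of the psy2, vp5 and Zm00001d048469 ratios are limited by 2 libraries a group and unknown depth.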

Other observations

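The gene model whose FPKM were nearest to each gene over the 4 B73 libraries was found by Euclidean distance on log2(FPKM + 1). For y1 it was Zm00001d051272, with FPKM of 39.3 and 42.7 in polysome RNA and 61.8 and 60.8 in total RNA (distance 0.148). For lcyE it was Zm00001d019317, with 6.58 and 8.53 in polysome RNA and 12.3 and 12.7 in total RNA (distance 0.0815). For zep1 it was Zm00001d051291, with 0.918 and 3.77 in polysome RNA and 7.12 and 7.24 in total RNA (distance 0.296). The distances of the other 4 nearest models were 0.0933 for psy2, 0.0977 for vp5, 0.131 for ccd1 and 0.284 for Zm00001d048469. The files give no names for these models, and a likeness over 4 libraries says nothing about a common role.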
